A study of Mus musculus with 2 samples.

Results

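The collagen genes are 44 of the 32285 genes in the feature table, namely all symbols made of Col, a type number, the letter a and a chain number. Of these, 42 had at least 1 UMI (a molecule counted once by its barcode) in a kept cell, and 30 had at least 50. The other 12 of these, among them Col10a1, Col11a1 and Col28a1, had between 3 and 34 UMIs over both libraries. Col19a1 and Col26a1 had no UMI in any barcode, which allows up to 0.00630 CPM (UMIs of a gene per 1000000 UMIs) in the sGC Ctr library and 0.00728 in the sGC ΔPC library over the kept cells. The cells came from subcutaneous Lewis lung carcinoma (LLC) tumors, a transplanted mouse cancer line, grown in C57BL/6 hosts. Hosts were Gucy1b1 flox/flox (sGC Ctr) or Cspg4-CreERT2::Gucy1b1 flox/flox (sGC ΔPC), and the deposited genotype of the latter spells the gene Gucyc1b1. Gucy1b1 encodes the beta subunit of soluble guanylate cyclase (sGC), the receptor for nitric oxide. Both genotypes were given tamoxifen 5 times when the mice were 4 weeks old and LLC cells when they were 8 weeks old, and tumors were taken 2 weeks later and digested with collagenase, dispase and DNase. Cre was driven by Cspg4, so any host cell with active Cspg4 could recombine, and the inoculated cancer cells carried neither host allele. Each condition is 1 library of cells pooled from 3 tumors, so no test between conditions was possible, and every interval below (95%) covers counting error only.

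Collagens are proteins of 3 chains wound into a triple helix. Fibrillar collagens (types I, II, III, V, XI, XXIV and XXVII) give tissue its tensile strength, type IV forms the network of basement membranes around vessels, and type VI forms beaded filaments near cells. Other types decorate fibrils, anchor basement membranes or span the cell membrane. In tumors, fibroblasts are known as the main source of fibrillar collagen, while endothelial cells (ECs) and pericytes, the mural cells of capillaries, lay down the vascular basement membrane.

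The libraries held 15007 (sGC Ctr) and 25631 (sGC ΔPC) barcodes with 487859656 and 436352742 UMIs, and shared 131 barcode sequences. After filtering, 12220 and 22498 cells remained, with medians of 35776.5 and 8685 UMIs. Cells were clustered without any collagen gene and named from marker lists that hold none, which gave fibroblast-like (185 and 872 cells), pericyte-like (40 and 22), EC-like (84 and 226), cancer-like (3730 and 4121), myeloid (2954 and 3287), T-cell-like (135 and 148) and granulocyte-like (441 and 507) classes, called by the plain names below. The other 4651 and 13315 cells got no class name, for some because a list was called but genes of another class led the cluster. Among them was cluster 0 with 2954 and 1752 cells, in which all 4 cancer markers and 5 of 10 fibroblast markers were called and which was led by Ptn, Amot, Wls and Peg3. Gucy1b1, the deleted gene, had 59 UMIs (118 CPM) in sGC Ctr pericytes and 13 UMIs (45.6 CPM) in sGC ΔPC pericytes, which is the direction that the labels give. Markers of cancer cells were found in droplets of the other classes. Free RNA, mixed droplets and cancer cells placed in a class were not told apart. The share of cancer-cell RNA, the summed level of Krt8, Krt18, Rhox5 and Hmga2 relative to the cancer class of the same library, was 50.3% in sGC Ctr and 67.2% in sGC ΔPC fibroblasts, 20.4% and 53.8% in ECs, and 4.75% and 8.36% in pericytes. Xist, abundant in the cancer cells (415 and 483 CPM) and low in pericytes (14.0 and 31.6 CPM), differed in the same direction, at 146 and 242 CPM in fibroblasts. Fibroblasts and ECs are therefore also given for cells with a share under 25% (138 and 243 fibroblasts, 67 and 70 ECs). These subsets were not matched in depth, with medians of 21086.5 and 4173 UMIs in fibroblasts and 23410 and 9406.5 in ECs. In a shallow cell the share rests on few marker UMIs, and what this did to the choice of cells was not tested.

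Collagen transcripts made up a larger part of the RNA of fibroblasts than of any other named class, followed by pericytes and ECs. In fibroblasts, 3.02% of UMIs were collagen in sGC Ctr and 1.67% in sGC ΔPC. Where the share of cancer-cell RNA was under 25%, these values were 5.28% and 4.65%. Pericytes stood at 1.31% and 1.25%, and ECs at 0.587% and 0.415%. Cancer cells had 0.135% and 0.139%, cluster 0 had 0.260% and 0.267%, and macrophages and monocytes together (the myeloid class) had 0.0372% and 0.0470%. T cells (0.0755% and 0.0798%) and granulocytes (0.103% and 0.129%), which are not known to make these proteins, serve as the reference for RNA from other cells. The order fibroblasts, pericytes, ECs, cancer cells was the same in both libraries, with no overlap of the counting intervals between neighbours.

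**Figure D1:**
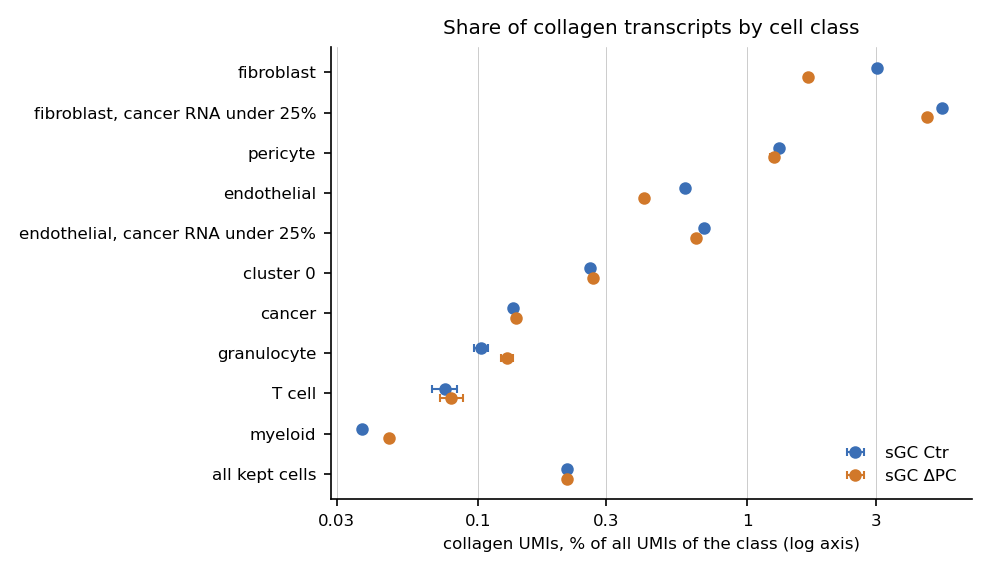
Collagen UMIs as a percentage of all UMIs of a class (log axis) for sGC Ctr (blue) and sGC ΔPC (orange), with 95% exact binomial intervals that are mostly smaller than the points. Fibroblasts lie at 3.02% and 1.67%, or 5.28% and 4.65% where cancer-cell RNA is under 25%, while pericytes lie at 1.31% and 1.25% and myeloid cells at 0.0372% and 0.0470%.

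Although fibroblasts gave only 1.37% and 2.99% of the UMIs of the kept cells, they held 19.4% (sGC Ctr) and 23.2% (sGC ΔPC) of all collagen UMIs. Cancer cells held 29.8% and 21.2% of the collagen UMIs and gave 47.0% and 32.9% of all UMIs. All cells without a class name held 47.5% and 52.0% of the collagen UMIs and gave 44.0% and 55.8% of all UMIs. Cluster 0, which is part of them, held 36.4% and 26.1% of the collagen UMIs and had 85.9% and 93.3% of cancer-cell RNA. In clusters 1, 2, 12, 14 and 15, also part of them, the cancer list was called and this share lay between 81.5% and 99.4%. How many cells without a name were cancer cells was not tested. ECs held 1.42% and 1.38%, and pericytes 0.644% and 0.403%. Over all kept cells the collagen share was 0.213% in sGC Ctr and 0.215% in sGC ΔPC.

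Each member was assigned to the class with its highest mean level over both libraries. UMIs from the 3′ end count molecules, so no correction for length was made between genes. How evenly different genes were captured was not tested, so ratios of 2 genes are best compared between classes. Of the 29 members with at least 50 UMIs in the named classes, 14 were highest in fibroblasts, 11 in pericytes, and 1 each in ECs (Col13a1), cancer cells (Col2a1), myeloid cells (Col11a2) and granulocytes (Col20a1). For 4 of the 29 the top class itself held under 20 UMIs in all, namely Col20a1 (1 and 0 UMIs), Col9a3 (0 and 1), Col4a4 (0 and 2) and Col17a1 (8 and 6), and their place is a description of few molecules. The top class was the same in both libraries for 21 of the 29, and for 12 its interval lay apart from that of the next class in both. Of these 12, 7 were highest in fibroblasts (Col3a1, Col1a1, Col1a2, Col12a1, Col16a1, Col23a1 and Col6a6) and 5 in pericytes (Col6a3, Col5a3, Col8a1, Col15a1 and Col18a1). For Col6a6 the next class was myeloid cells. Its 0 UMIs in pericytes allow up to 7.37 and 12.9 CPM, above its level in fibroblasts (3.52 and 2.19 CPM). The ranking depended on the cancer-cell RNA in the fibroblast and EC classes. With fibroblasts and ECs under 25% of it, a ranking added after seeing the data, 18 members were highest in fibroblasts and 5 in pericytes, and 6 of the 29 had another top class. Col5a3, Col15a1, Col6a1 and Col6a2 were then highest in fibroblasts, and Col4a1 and Col4a2 in ECs. Col8a1 and Col18a1 were still highest in pericytes with intervals apart in both libraries, and Col6a3 was level between pericytes and fibroblasts.

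**Figure D2:**
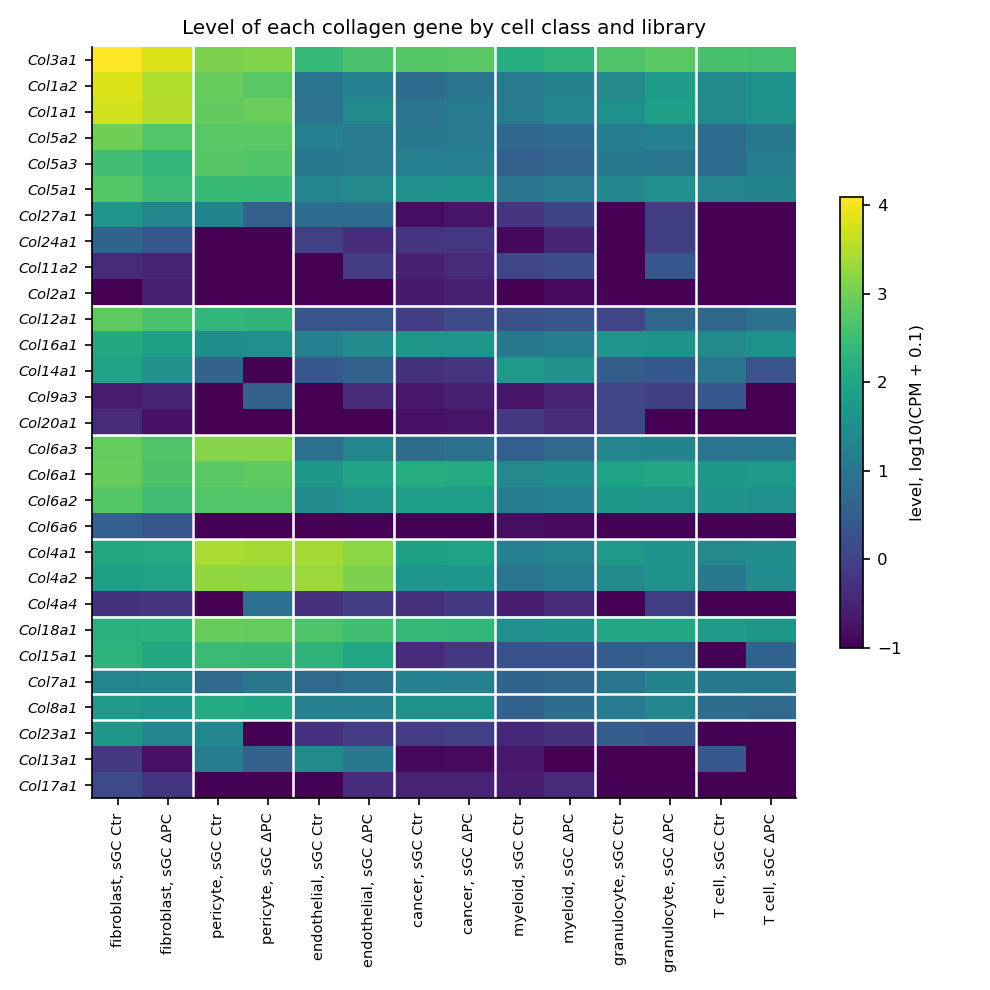
Level of the 29 members with at least 50 UMIs in the named classes, as log10(CPM + 0.1), by class and library, with members grouped by collagen type (white lines). Col3a1, Col1a2 and Col1a1 are brightest in fibroblasts, and Col4a1 and Col4a2 in pericytes and ECs, in both libraries.

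Among fibrillar collagens, the 3 most abundant members in fibroblasts were Col3a1, the only chain of type III (ENSMUSG00000026043, mm10 chr1:45311538-45349706, plus strand), and the chains of type I, Col1a2 (chr6:4504814-4541544, plus strand) and Col1a1 (chr11:94936224-94953042, plus strand). Col3a1 stood at 12336 CPM in sGC Ctr and 6696 in sGC ΔPC fibroblasts, against 1249 and 1309 in pericytes. Col1a2 stood at 6734 and 3225 CPM in fibroblasts and at 813 and 625 in pericytes. Col1a1 stood at 5521 and 3275 CPM in fibroblasts and at 721 and 860 in pericytes. On means of both libraries, the level in fibroblasts was 5.56-fold (Col1a1) to 7.44-fold (Col3a1) that in pericytes, and in fibroblasts under 25% of cancer-cell RNA it was 11.7-fold (Col1a1), 14.6-fold (Col1a2) and 16-fold (Col3a1). In ECs the type I chains were near 0, with 21 and 82 UMIs of Col1a1 (8.53 and 27.8 CPM). Of fibroblasts thinned to 2000 UMIs, 92.0% (162 of 176; 96.8% without thinning) in sGC Ctr and 85.8% (633 of 738; 95.3%) in sGC ΔPC had a Col1a1 UMI, while 6.19% and 6.25% of T cells did (8.15% and 12.8% without thinning). Median depths were 23615 and 7258 UMIs in fibroblasts and 2738 and 2865.5 in T cells.

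Type V collagen, which joins type I fibrils and sets their diameter, differed in chain makeup between classes. Col5a2 stood at 979 and 533 CPM in fibroblasts and at 613 and 611 in pericytes, whereas Col5a1 stood at 569 and 304 in fibroblasts and at 266 and 281 in pericytes. In fibroblasts and pericytes there were fewer Col5a1 than Col5a2 UMIs, with a ratio of 0.581 (0.558 to 0.605) and 0.571 (0.548 to 0.594) in fibroblasts. In cancer cells the order was the opposite, at 3.47 (3.32 to 3.64) in sGC Ctr and 3.17 (3.00 to 3.35) in sGC ΔPC. Col5a3 stood at 593 and 502 CPM in pericytes and 338 and 224 in all fibroblasts, but at 549 and 625 in fibroblasts under 25% of cancer-cell RNA, so that the order of these classes was not stable. The minor fibrillar genes Col27a1 (44.1 and 20.4 CPM) and Col24a1 (4.14 and 2.44 CPM) were highest in fibroblasts, and the cartilage collagen Col2a1 had no more than 0.170 CPM in any named class, with 30 and 23 UMIs in cancer cells.

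Collagens that sit on fibrils were led by Col12a1, found on type I fibrils of load-bearing tissue, at 666 and 417 CPM in fibroblasts and 238 and 211 in pericytes. Col12a1 was at 0.746 and 1.39 CPM in cancer cells. Col16a1 was spread more evenly, at 125 and 81.7 CPM in fibroblasts and 50.6 and 47.5 in cancer cells. Col14a1, which binds fibrils and is known from mature connective tissue, was found both in fibroblasts and in myeloid cells. It stood at 90.7 and 37.9 CPM in fibroblasts and at 57 and 36.7 in myeloid cells, but at 0.451 and 0.488 in cancer cells.

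The myeloid signal of Col14a1 differed by cluster. It was 77.9 (sGC Ctr) and 59.9 CPM (sGC ΔPC) in cluster 3 and 68 and 56.7 in cluster 21, but 25.6 and 13.8 in cluster 7 and 3.84 and 3.27 in cluster 9, where monocyte markers were called. Each myeloid cell carried on average 0.616 and 0.329 Col14a1 UMIs, against 0.0068 and 0.00592 in granulocytes. At 2000 UMIs a cell, 9.06% (267 of 2948; 30.5% without thinning) and 4.87% (142 of 2914; 16.5%) of myeloid cells had a Col14a1 UMI, from median depths of 9784.5 and 7580 UMIs, against 1.03% (1 of 97) and 1.04% (1 of 96) of T cells, where the values without thinning were 2.96% and 0.676%. Col1a1 and Col3a1 did not follow this order. Cluster 9 had more Col3a1 (196 and 228 CPM) than cluster 21 (107 and 144 CPM).

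As a share of RNA, basement membrane collagen was highest in vessel cells. Col4a1 (mm10 chr8:11198423-11312826, minus strand) stood at 2793 (2649 to 2944) and 2569 (2386 to 2762) CPM in pericytes and at 2590 (2527 to 2654) and 1663 (1617 to 1710) CPM in ECs. Col4a2 (chr8:11312805-11449287, plus strand) stood at 1766 and 1646 CPM in pericytes and at 2108 and 1240 in ECs. In ECs under 25% of cancer-cell RNA, Col4a1 was at 3266 and 3144 CPM, above pericytes. Fibroblasts had 123 and 132 CPM of Col4a1, and cancer cells 81.1 and 85.1. By number of molecules the order was another, with 18169 and 11524 Col4a1 UMIs in the many cancer cells and 12054 and 7618 in cluster 0, against 6375 and 4909 in ECs and 1398 and 732 in pericytes, out of 43747 and 35843 in all. In thinned cells 95% and 95.5% of pericytes and 93.4% and 74.6% of ECs had a Col4a1 UMI (100% and 100% of pericytes and 94.0% and 92.9% of ECs without thinning). T cells stood at 6.19% and 7.29% (8.15% and 10.1%). Median depths were 11312.5 and 11185 UMIs in pericytes and 24853.5 and 8164 in ECs. The other type IV chains, which build the specialised membranes of kidney, lung and eye, were hardly present. Col4a4 had 462 UMIs over all kept cells, Col4a5 had 138, Col4a3 had 7 and Col4a6 had 6.

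Type IV heterotrimers of vessels hold Col4a1 and Col4a2 chains, whose genes start head to head and overlap at their starts. In the RefSeq promoter table for GRCm38.p6, which holds 35 of the 44 members, Col4a1 starts at position 11312826 on the minus strand and Col4a2 at 11312805 on the plus strand. The 30 bases at chr8:11312801-11312830, plus strand, are shown because they hold both starts, and the 22 bases in capitals belong to both transcripts.
Col4a1 and Col4a2 starts: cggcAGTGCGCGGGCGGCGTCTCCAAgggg
The UMI ratio of Col4a1 to Col4a2 stayed within a narrow range over classes whose levels differed widely. It was 1.58 (1.45 to 1.72) and 1.56 (1.39 to 1.76) in pericytes, 1.55 and 1.58 in fibroblasts, and 1.73 and 1.80 in cancer cells. ECs were lower, at 1.23 (1.18 to 1.27) and 1.34 (1.28 to 1.40), with intervals apart from those of fibroblasts and cancer cells in both libraries and from that of pericytes in sGC Ctr but not in sGC ΔPC. In ECs under 25% of cancer-cell RNA the ratios were 1.26 and 1.38.

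Type VI collagen was shared by pericytes and fibroblasts. Col6a3, whose chain is the largest of the heterotrimer, stood at 1497 and 1460 CPM in pericytes and 772 and 496 in all fibroblasts, but at 1364 and 1577 in fibroblasts under 25% of cancer-cell RNA, level with pericytes. Col6a1 stood at 655 and 691 CPM in pericytes, 794 and 462 in all fibroblasts, and 1260 and 1170 in fibroblasts under 25%, which is 1.80-fold the level of pericytes. Col6a2 was likewise 1.64-fold the level of pericytes in these fibroblasts. Cancer cells had Col6a1 at 140 and 136 CPM but Col6a3 at only 6.17 and 8.36. The ratio of Col6a1 to Col6a2 was 1.45 and 1.38 in fibroblasts and 2.00 and 2.02 in cancer cells. Col6a6 was at 3.52 and 2.19 CPM in fibroblasts and had no UMI in pericytes, ECs or cancer cells, which in pericytes allows up to 7.37 and 12.9 CPM.

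The multiplexins Col18a1, the precursor of endostatin, and Col15a1 are components of vascular basement membranes. Col18a1 stood at 791 and 776 CPM in pericytes, 484 and 358 in ECs, 250 and 239 in cancer cells and 167 and 178 in fibroblasts. Col15a1 stood at 298 and 274 CPM in pericytes, 201 and 106 in ECs and 193 and 120 in fibroblasts (335 and 350 under 25% of cancer-cell RNA), but at 0.321 and 0.569 in cancer cells. The pair therefore had 1 member with a cancer-cell signal and 1 without. Of the remaining types, Col8a1 was highest in pericytes (138 and 112 CPM). Col7a1, the anchoring fibril collagen of skin, was at 20.7 and 22.9 CPM in fibroblasts and 18 and 16.3 in cancer cells. The transmembrane collagens differed in site, with Col13a1 highest in ECs (27.6 and 10.8 CPM) and Col23a1 in fibroblasts (49.2 and 21.4 CPM).

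By type, fibrillar members made up 87.8% and 85.4% of the collagen UMIs of fibroblasts, and the basement membrane network made up 80% and 69.9% of those of ECs. Pericytes were the most mixed class, with 34.9% and 33.7% basement membrane, 32.7% and 33.4% fibrillar and 20.6% and 21.5% type VI. Cancer cells had 47.8% and 50.2% fibrillar, mostly Col3a1, 18.5% and 17.2% multiplexin and 16% and 15.2% type VI. In ECs the fibrillar part was 5.62% and 13.3%, and in ECs under 25% of cancer-cell RNA it was 2.52% and 3.85%, beside 84.7% and 84.2% basement membrane.

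**Figure D3:**
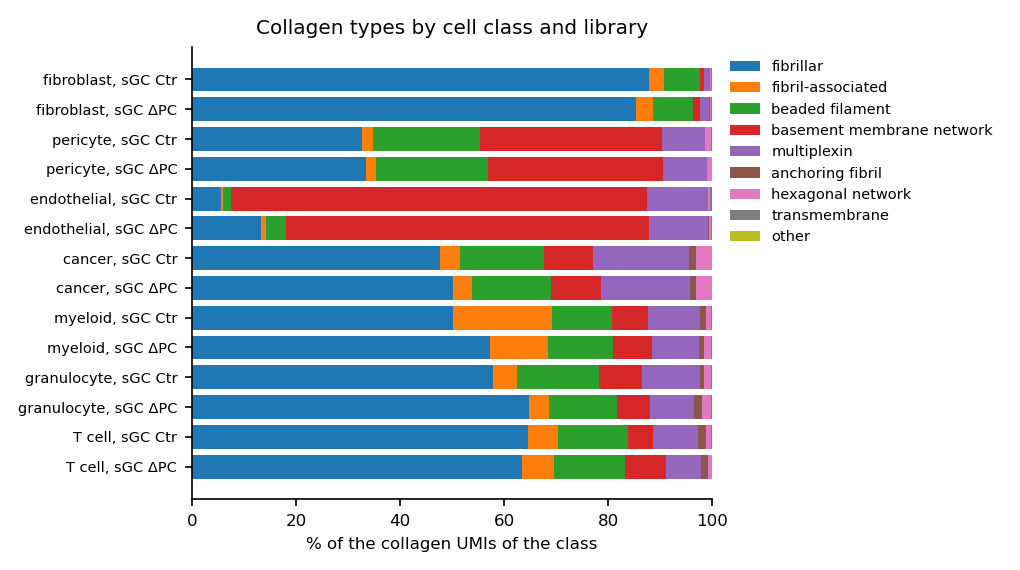
Collagen types as a percentage of the collagen UMIs of each class and library. ECs are dominated by the basement membrane network (80% and 69.9%), fibroblasts by fibrillar members (87.8% and 85.4%), and pericytes hold both at 32.7% to 34.9%.

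Cancer cells had Col3a1 without a matching level of type I chains. Col3a1 stood at 566 (sGC Ctr) and 609 CPM (sGC ΔPC) in cancer cells, and at 1466 and 1544 in cluster 0. Col1a1 stood at 8.88 and 12.3 CPM in cancer cells and 16 and 19.6 in cluster 0, and Col1a2 at 6.25 and 8.89 and at 6.58 and 9.87. The ratio of Col3a1 to Col1a1 UMIs was 63.7 (60.9 to 66.6) and 49.4 (47.1 to 51.9) in cancer cells. It was 2.23 and 2.04 in fibroblasts and 11.4 and 8.69 over all kept cells. Classes not known to make collagen lay near the value over all cells, with T cells at 14.4 (8.04 to 28.4) and 10.0 (6.30 to 16.7) and granulocytes at 13.5 (9.54 to 19.6) and 8.39 (6.77 to 10.5).

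As a share of RNA, Col3a1 in cancer cells was close to that in granulocytes (487 and 630 CPM), which are shallow. Of cells thinned to 2000 UMIs, 60.8% and 63.8% of cancer cells had a Col3a1 UMI (99.2% and 96.8% without thinning), against 60.6% and 69.6% of granulocytes (62.4% and 77.1%) and 52.6% and 51% of T cells (71.1% and 68.2%), so this share does not separate cancer cells from the background. Median depths were 54895 and 18461 UMIs in cancer cells and 2058 and 2356 in granulocytes. Counted per cell, cancer cells carried on average 34.0 (sGC Ctr) and 20 (sGC ΔPC) Col3a1 UMIs, granulocytes 1.07 and 1.56, T cells 1.28 and 1.35, and myeloid cells 1.55 and 1.8. Cluster 0 carried 70.6 and 76.2 per cell, and 88.3% and 88.5% of its thinned cells had a UMI (99.97% and 99.94% without thinning, at median depths of 44497 and 49484.5 UMIs).

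**Figure D4:**
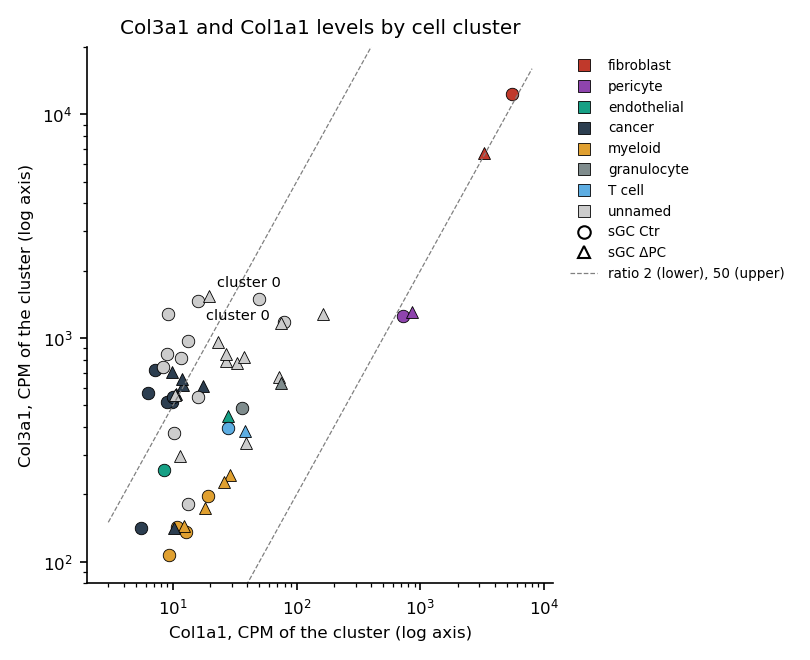
Col3a1 against Col1a1 (CPM, log axes) in each of the 27 clusters, with circles for sGC Ctr, triangles for sGC ΔPC, colors for classes and dashed lines at ratios of 2 and 50. Fibroblasts (2.23 and 2.04) and pericytes lie along the lower line, and most cancer clusters and cluster 0 lie near or above the upper one.

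The promoter of Col3a1 is shown because this gene led the collagen UMIs of both fibroblasts and cancer cells. The RefSeq window of 250 bases before its start lies at chr1:45311288-45311537, plus strand, of GRCm38.p6, and the capitals mark its single TATAAA.
Col3a1 promoter: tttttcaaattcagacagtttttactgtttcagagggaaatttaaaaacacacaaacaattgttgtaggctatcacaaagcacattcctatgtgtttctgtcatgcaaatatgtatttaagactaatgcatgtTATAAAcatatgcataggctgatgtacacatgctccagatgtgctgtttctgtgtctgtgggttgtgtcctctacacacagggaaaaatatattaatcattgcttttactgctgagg
Read on both strands, the window held no CCAAT and no GGGCGG. Over all 32851 windows of the table, TATAAA was found in 12.4%, CCAAT in 33.8% and GGGCGG in 32.7%, and over the 38 windows of members in 5 (13.2%), 13 (34.2%) and 22 (57.9%), respectively.

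Apart from 1 cluster, the cancer clusters lay in a narrow range of collagen. Cluster 6, in which all 8 genes of the hypoxia list were called, had 0.133% and 0.130%, cluster 4, with cell cycle genes called, had 0.130% and 0.146%, and cluster 10 had 0.150% and 0.148%. Col3a1 lay between 518 and 720 CPM in clusters 4, 5, 6 and 10 in either library. Cluster 23 stood apart at 0.0464% and 0.0569% collagen, with 142 and 142 CPM of Col3a1. It also had only 14.8 and 15.9 CPM of Xist, against 415 and 483 in the whole class. Most sGC Ctr cancer cells were in clusters 4 and 10 and most sGC ΔPC cancer cells in clusters 5, 6 and 4.

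The pericyte class (40 and 22 cells), in which Gucy1b1 was lower in sGC ΔPC but still had UMIs, had close levels of its abundant collagens in both libraries. Of 15 members with at least 50 UMIs, none differed by 2-fold in either direction, where 1.21% of all 2390 genes were higher and 1.55% lower by that much. The median log2 ratio of sGC ΔPC over sGC Ctr was -0.04 over the members and -0.04 over all genes. The ratio was -0.12 (-0.25 to 0.01) for Col4a1, -0.04 (-0.21 to 0.14) for Col6a3 and 0.07 (-0.12 to 0.26) for Col3a1. The type I chains lay on opposite sides of 0, with Col1a2 at -0.38 (-0.64 to -0.12) and Col1a1 at 0.25 (0.01 to 0.49). Their UMI ratio, Col1a1 to Col1a2, was higher in sGC ΔPC in pericytes (0.887 and 1.38) and fibroblasts (0.820 and 1.02; 0.818 and 0.964 under 25% of cancer-cell RNA). Intervals overlapped in cancer cells (1.42 and 1.38), granulocytes (1.46 and 1.22), T cells (1 and 1), myeloid cells (1.12 and 1.17) and ECs (0.955 and 1.58). Over all kept cells it was 0.879 and 1.08, where fibroblasts held 36035 of the 41865 Col1a1 UMIs in sGC Ctr. The pericyte class held 500466 and 284961 UMIs, and the interval was widest for Col8a1 (-0.30, -0.95 to 0.33). Under the minimum of 50 UMIs, Col23a1 had 12 and 0 UMIs, Col27a1 10 and 1, Col13a1 7 and 1, and Col16a1 17 and 10. The other members under it had at most 3 in either library.

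In fibroblasts, taken as a whole class, most collagen genes were lower in sGC ΔPC. Of 22 members with at least 50 UMIs, 18 were lower and 4 higher, where 59.6% of all genes tested were lower. Lower by at least 2-fold were Col14a1 (90.7 and 37.9 CPM; log2 ratio -1.26, -1.44 to -1.08), Col23a1 (49.2 and 21.4 CPM; -1.20), Col27a1 (44.1 and 20.4 CPM; -1.11) and Col1a2 (6734 and 3225 CPM; -1.06, -1.08 to -1.04), and none was higher by that much. Of all 10930 genes 2.95% were lower and 1.54% higher by 2-fold. The median log2 ratio was -0.70 over members and -0.08 over all genes. The 4 members that were not lower had log2 ratios of 0.09 (Col18a1), 0.11 (Col4a1), 0.08 (Col4a2) and 0.15 (Col7a1). Cancer-cell RNA differed between these fibroblasts in the same direction as the libraries (50.3% and 67.2%).

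Among fibroblasts with under 25% of cancer-cell RNA, at unlike depths (medians of 21086.5 and 4173 UMIs), the difference in collagen was small. The median over 20 members was -0.08 against -0.03 over all genes, with 12 lower and 8 higher, near the 54.6% of all genes that were lower. Col1a2 stood at 11776 and 9262 CPM (-0.35, -0.37 to -0.32), Col3a1 at 22060 and 18861 (-0.23) and Col1a1 at 9637 and 8924 (-0.11). Only Col14a1 passed 2-fold, at 171 (157 to 187) and 81.2 (70.5 to 93.2) CPM and a log2 ratio of -1.08 (-1.32 to -0.84), where 0.921% of 8360 genes were lower and 1.18% higher by that much. With the cancer-cell profile subtracted from the whole class instead, Col14a1 stood at 182 and 115 CPM (-0.67), under 2-fold, and without joining the libraries its log2 ratio was -0.82. After Col14a1, the largest difference toward lower levels was Col8a1 (68.2 and 41.8 CPM; -0.71, -1.06 to -0.36). Toward higher levels the largest differences were Col7a1 (24.5 and 49 CPM; 1.00, 0.57 to 1.44), just under 2-fold, Col18a1 (66.2 and 105 CPM; 0.66), Col4a2 (0.55) and Col4a1 (0.54). With the cancer-cell profile subtracted from the whole class, Col18a1 was lower in sGC ΔPC instead (83.0 and 53.0 CPM). Col8a1 then stood at 68.0 and 57.9 CPM, whereas Col7a1 (23.4 and 36.5 CPM), Col4a1 and Col4a2 were still higher in sGC ΔPC. With clusters found without joining the libraries, the fibroblast class held 117 and 74 cells with 5.60% and 5.41% collagen, and the median over members was 0.04.

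**Figure D5:**
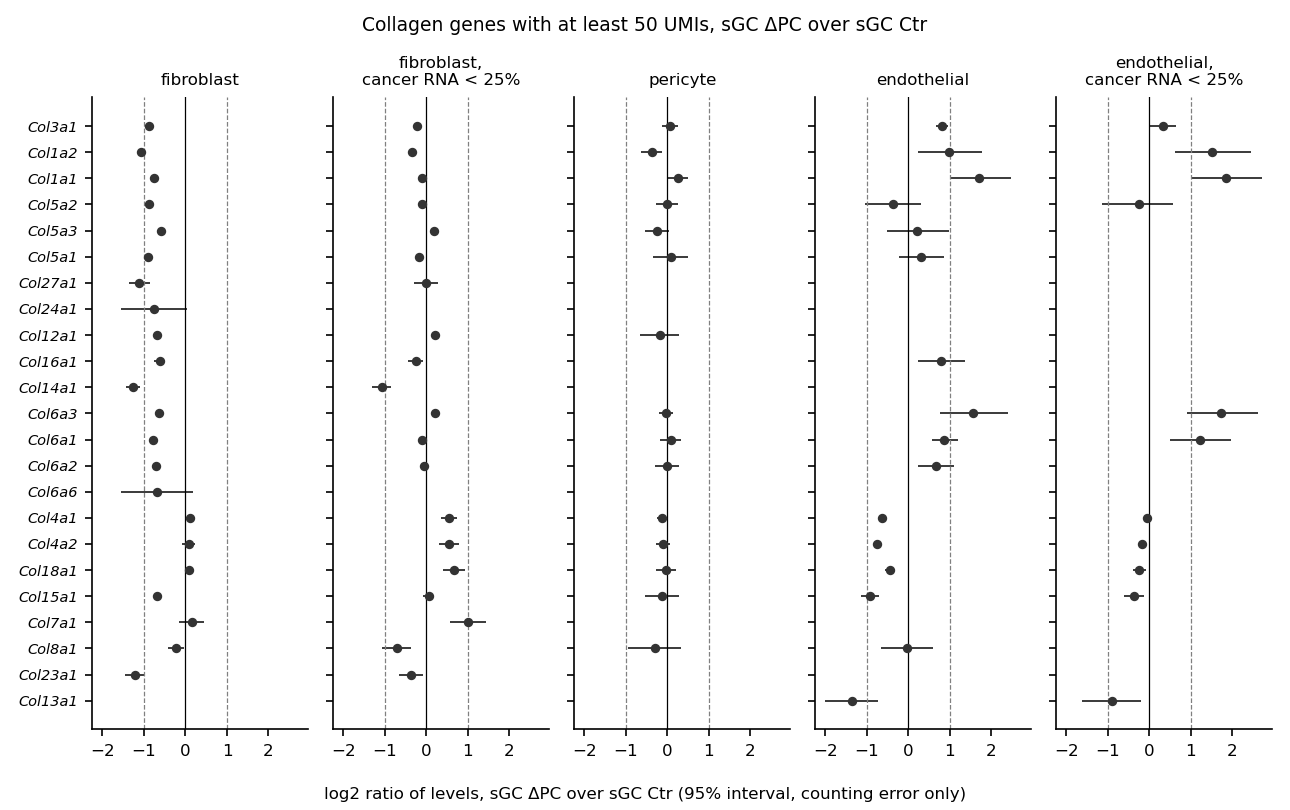
Log2 ratio of the level in sGC ΔPC over sGC Ctr for each member with at least 50 UMIs, with 95% intervals for counting error and dashed lines at 2-fold. Most fibroblast points lie between -0.5 and -1.3 in the whole class. Under 25% of cancer-cell RNA most lie near 0, with Col14a1 at -1.08, Col8a1 at -0.71, Col18a1 at 0.66 and Col7a1 at 1.00. Pericyte points lie near 0.

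Sub-clusters of fibroblasts, also found without collagen genes, held unlike amounts of collagen. Sub-cluster 0 (89 and 102 cells; adventitial and contractile genes called, led by Mgp, Igfbp5 and Fibin) had 6.02% and 5.23%, and sub-cluster 4 (29 and 87 cells; led by Serpinb2, Pgf and Cryab) had 4.38% and 4.09%. Their shares of cancer-cell RNA were 5.59% and 15.7%, and 5.47% and 20.1%. Sub-cluster 1 (21 and 147 cells), led by the mural genes Rgs5, Sparcl1 and Acta2, had 0.924% and 0.766% collagen, 69.2% and 78.7% of cancer-cell RNA, and more Col4a1 (394 and 323 CPM) than sub-cluster 0 (195 and 247 CPM). Over 15 members tested in sub-cluster 1, the median log2 ratio was -0.29 against -0.08 over all genes. None of the 15 passed 2-fold, where 3.4% of 3327 genes were lower and 2.95% higher by that much. Sub-cluster 2, led by cycling genes, Krt18 and Krt8, had 0.934% and 0.466%, with shares of cancer-cell RNA of 92.0% and 93.3%. It held 2467522 of the 6526908 UMIs of sGC Ctr fibroblasts and 4972803 of the 12300723 UMIs of sGC ΔPC fibroblasts. Its median log2 ratio was -0.89 over 20 members against -0.05 over all genes. Of the 20 members, 8 were lower in sGC ΔPC by 2-fold and none higher, where 1.74% of 8399 genes were lower and 1.24% higher by that much. In all, 6 sub-clusters led by markers of another class held 32.4% of sGC Ctr and 59.2% of sGC ΔPC fibroblasts. No sub-cluster had a fibroblast marker among its leading genes, so 1 marker of another class was enough, such as Rgs5 in sub-cluster 1 or Pdgfrb in sub-cluster 6. Sub-clusters 5 and 7, not among the 6, had 76.7% and 65.2% of cancer-cell RNA in sGC ΔPC. These shares of fibroblasts therefore do not measure cells of another class.

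Within sub-cluster 0 most members differed little, with a median of -0.14 over 20 members against -0.02 over all genes. Col14a1 (180 and 80.8 CPM; -1.15, -1.45 to -0.86) and Col8a1 (68.8 and 30.5 CPM; -1.17, -1.67 to -0.69) were lower by 2-fold, where 1.1% of 7022 genes were. Col7a1 (33.3 and 69.5 CPM; 1.06, 0.61 to 1.52) was higher by 2-fold, where 1.35% were, and Col18a1 stood at 65.6 and 131 CPM (0.99). In sub-cluster 4 none of 17 members passed 2-fold, where 2.68% of 4036 genes were higher and 1.46% lower, and the median was 0.05. There Col14a1 stood at 166 and 141 CPM (-0.23, -0.61 to 0.14). The sub-clusters also differed in Col23a1, which stood at 117 and 86.8 CPM in sub-cluster 0 and at 1.52 and 3.14 in sub-cluster 4.

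In ECs, the basement membrane genes were lower in sGC ΔPC over the whole class. Col4a2 had a log2 ratio of -0.77 (-0.83 to -0.70), Col4a1 of -0.64 (-0.69 to -0.59) and Col15a1 of -0.92 (-1.13 to -0.71). Of 16 members, Col13a1 (27.6 and 10.8 CPM; -1.35, -2.00 to -0.72) was lower by 2-fold, and Col1a1 (8.53 and 27.8 CPM; 1.70, 1.00 to 2.47) and Col6a3 (7.31 and 21.3 CPM; 1.55, 0.77 to 2.39) were higher, where 1.88% of 8245 genes were lower and 1.98% higher by that much. Col1a1 (21 and 82 UMIs) and Col6a3 (18 and 63 UMIs) reached the minimum UMI count over both libraries through their sGC ΔPC counts, and Col13a1 (68 and 32 UMIs) through its sGC Ctr count. The median log2 ratio was 0.25 over members and -0.10 over all genes. Cancer-cell RNA stood at 20.4% and 53.8%, and Col3a1, abundant in cancer cells, at 257 and 450 CPM.

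In ECs under 25% of cancer-cell RNA the basement membrane genes were close between libraries, at 3266 and 3144 CPM for Col4a1 (-0.05, -0.11 to 0.00) and 2585 and 2285 CPM for Col4a2 (-0.18, -0.25 to -0.11). Col15a1 stood at -0.37 (-0.61 to -0.14) and Col18a1 at -0.24 (-0.39 to -0.08). The stromal chains Col1a1 (18 and 44 UMIs; 1.84, 1.02 to 2.72), Col6a3 (18 and 41 UMIs; 1.74), Col1a2 (17 and 33 UMIs; 1.51) and Col6a1 (27 and 43 UMIs; 1.22) were higher by 2-fold, 4 of 11 members, where 1.02% of 6458 genes were higher. None was lower by 2-fold, where 0.774% of genes were, and Col13a1 stood at 37.1 and 20.1 CPM (-0.89, -1.63 to -0.19). These 4 genes are abundant in fibroblasts and pericytes, and the part of free stromal RNA in their counts was not tested. Each of the 4 reached the minimum UMI count over both libraries through its sGC ΔPC count. Col6a2 (22 and 18 UMIs) and Col8a1 (29 and 12 UMIs) fell under this minimum. Col13a1 (65 and 24 UMIs) reached it through its sGC Ctr count. Near this minimum a gene is kept where either library is high, so 4 of 11 is not read as a difference from 1.02%.

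Cancer cells and cluster 0 had nearly the same collagen profile in both libraries. Of 24 members in cancer cells none differed by 2-fold, where 2.19% of 13937 genes were higher and 0.122% lower, and the median was 0.11 against 0.03 over all genes. The larger values were those of Col12a1 at 0.746 and 1.39 CPM (0.90), Col15a1 (72 and 77 UMIs; 0.82) and Col11a2 (43 and 44 UMIs; 0.76). Next came Col4a4 (98 and 85 UMIs; 0.52), Col1a2 (0.51) and Col1a1 (0.47), whereas Col18a1 (-0.06), Col6a1 (-0.04) and Col4a1 (0.07) lay near 0. In cluster 0 the median over 24 members was 0.11, and only Col11a2 (28 and 40 UMIs; 1.23, 0.50 to 1.98) was higher by 2-fold, where 0.787% of 13466 genes were higher and 0.201% lower. There Col11a2 reached the minimum UMI count over both libraries through its sGC ΔPC count. In myeloid cells Col14a1 stood at -0.64 (-0.75 to -0.53) over the class, whose clusters had unlike shares in the libraries, with 1508 and 1190 cells in cluster 3 and 508 and 1168 in cluster 7. Within clusters it was 77.9 and 59.9 CPM in cluster 3, 25.6 and 13.8 in cluster 7 and, with overlapping intervals, 68 (59.6 to 77.3) and 56.7 (45.7 to 69.4) in cluster 21. Over the class, Col3a1 (143 and 201 CPM; 0.49) and Col1a1 (13 and 22.1 CPM; 0.77) were higher. The share of cancer-cell RNA in myeloid cells was 7.92% and 11.5%. In cancer cells Ptprc, at 437 and 443 CPM in myeloid cells, stood at 2.34 and 5.06 CPM. The part of RNA from other cells in the differences of both classes was not tested.

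Genes that fold, trim, cross-link, bind or break down collagen were read in the same way, beside 2.95% of all genes lower and 1.54% higher by 2-fold in fibroblasts and an all-gene median of -0.08. Of the 18 genes for chain folding and hydroxylation, 16 had enough UMIs in fibroblasts, with a median log2 ratio of -0.50 and 1 lower by 2-fold, the prolyl hydroxylase subunit P4ha3 (38.9 and 18.9 CPM; -1.04). Serpinh1, the collagen chaperone HSP47, was the most abundant of them at 1082 and 715 CPM in fibroblasts and at 1083 and 1077 in pericytes. Of 7 cross-linking genes, all tested (median -0.66), 1 was lower by 2-fold in fibroblasts, the lysyl oxidase relative Loxl1 (300 and 143 CPM; -1.07), and of 7 propeptide-removal genes, 5 tested (median -0.80), likewise 1, the N-proteinase Adamts2 (233 and 111 CPM; -1.06). Of 10 receptor and uptake genes, 9 tested (median -0.33), Itga11, an integrin chain for fibrillar collagen, was lower by 2-fold (14.6 and 5.37 CPM; -1.44). Of 7 breakdown genes, 6 tested (median -0.85), the gelatinase Mmp2 (645 and 295 CPM; -1.13) and Fap (24.5 and 12 CPM; -1.03) were lower, and the collagenase Mmp13 (9 and 50 UMIs; 1.56) was higher. Mmp13 reached the minimum of 50 UMIs over both libraries through its sGC ΔPC count.

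In fibroblasts under 25% of cancer-cell RNA, only Pcolce2, an enhancer of propeptide removal, passed 2-fold among the 38 genes tested of these 5 lists (25.2 and 12.3 CPM; -1.03), where 0.921% of all genes were lower. The medians of the lists there lay between -0.37 (breakdown) and -0.04 (cross-linking). Mmp2 stood at 1163 and 913 CPM (-0.35), Loxl1 at 528 and 391 (-0.44) and Lox at 782 and 838 (0.10). In pericytes 1 of 20 tested genes of the lists was lower by 2-fold (1.55% of all genes), Mia3, which helps procollagen leave the endoplasmic reticulum (108 and 49.1 CPM; -1.14, -2.10 to -0.27). In these classes, Pcolce2 and Mia3 each reached the minimum UMI count over both libraries through the sGC Ctr count. In ECs 1 of 27 was lower (1.88% of all genes), P3h2, at 14.6 and 7.11 CPM (-1.04). In ECs under 25% of cancer-cell RNA none of 23 was past 2-fold, and P3h2 stood at 16.6 and 15.9 CPM on 29 and 19 UMIs. In cancer cells 1 of 44 was higher (2.19% of all genes), the cathepsin Ctsk, at 3.01 and 8.74 CPM (1.54).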

How the data were processed

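Single cells of the tumors were measured with 10x 3′ libraries. Per the labels and the study's methods, the authors aligned the reads to mm10 with Cell Ranger 6.1.1 and deposited raw UMI counts per gene and barcode for each library, and these counts were used as deposited. Cells with over 10% mitochondrial UMIs, or more than 3 median absolute deviations from the library median of log UMIs or log genes, were left out. The deviation rule marked 1291 barcodes in sGC Ctr but 1 in sGC ΔPC. Of the kept cells, 547 in sGC Ctr and 3928 in sGC ΔPC had under 2000 UMIs. Collagen genes were removed before clustering (3000 variable genes, 20 components, libraries joined by mutual nearest neighbours, Leiden resolution 1.0; scanpy 1.11.5, leidenalg 0.10.2), and classes were named from marker lists with at least 3 called markers. The details of the naming rule were set after the clusters were seen, and the members and lists were chosen with earlier results of these data known. UMIs were summed per class and library and given per 1000000 UMIs (CPM). Exact intervals (scipy 1.17.1; Poisson for levels, binomial for shares and ratios) cover counting error only. Ratios between libraries were read for genes with at least 50 UMIs over both, and a 2-fold difference was called. With 1 library per condition no p-value was computed. For shares of cells with a UMI, each cell was thinned to 2000 UMIs and shallower cells were left out. All collagen genes were described, with full values for those highest in a class or past 2-fold. Doublets were kept: Scrublet called 520 barcodes (4.26%) in sGC Ctr and 0 in sGC ΔPC, where it did not work. Alternatives covered filters, clustering, joining, doublets, cancer-cell RNA, class calls, weights and scaling. The calculations were tested on simulated data. Gene coordinates are from the GENCODE annotation of mm10 and sequences from RefSeq for GRCm38.p6.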

Additional observations from a re-analysis of the deposited data

How the results depend on the processing

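No paired analysis was possible because each condition has 1 library. Counting intervals do not cover differences between tumors. Of the alternative values that answer a comparison, 84 stayed within the counting interval or count range, 92 moved and 5 reversed, and of those for single genes 92, 83 and 13. The causes were not tested. Values follow as sGC Ctr and then sGC ΔPC where both are given. All log2 values are sGC ΔPC over sGC Ctr, "summed" is the log2 ratio of all collagen UMIs, and "down" and "up" count members past 2-fold.

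At Leiden resolution 2.0, collagen shares were 5.36% and 3.97% in fibroblasts, 0.154% and 0.155% in cancer cells and 0.475% in sGC ΔPC ECs. The sGC ΔPC Col1a1:Col1a2 ratio of fibroblasts was 0.969, with 1 of 20 members down. Medians were -0.366 (fibroblasts) and 0.594 (ECs), and summed ratios -0.433, -0.303 (ECs) and 0.0163 (cancer cells). Without Scrublet doublets, shares in sGC Ctr were 3.16% in fibroblasts and 0.643% in ECs. Without thinning, shares of cells with a UMI were 96.8% and 95.3% (fibroblasts, Col1a1), 31.0% and 26.6% (cancer cells, Col1a1), 99.2% and 96.8% (cancer cells, Col3a1), 100% and 100% (pericytes, Col4a1) and 92.9% (sGC ΔPC ECs, Col4a1). With a minimum of 10 UMIs, 7 of 26 members were down in fibroblasts and 2 of 18 in pericytes.

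With under 25% of cancer-cell RNA, shares were 5.28% and 4.65% in fibroblasts and 0.691% and 0.645% in ECs. The sGC ΔPC Col1a1:Col1a2 ratio of fibroblasts was 0.964, 1 member was down in fibroblasts, and 4 were up and 0 down in ECs. Medians were -0.0838 in fibroblasts and, reversed, -0.0548 in ECs, summed ratios -0.183 and -0.0987, Col12a1 (0.21) and Col6a3 (0.21) reversed in fibroblasts, and 5 members were highest in pericytes, a ranking added after seeing the data. With sub-clusters led by another class left out, chosen after seeing the data, fibroblast shares were 4.91% and 3.17%, the sGC ΔPC Col1a1:Col1a2 ratio 0.971, the median -0.559, the summed ratio -0.631 and 1 of 20 members was down. With the cancer profile subtracted, also chosen after seeing the data, shares were 5.95% and 4.82% in fibroblasts, 0.703% and 0.736% in ECs and 1.37% and 1.35% in pericytes. Summed ratios were -0.305 in fibroblasts and, reversed, 0.0671 in ECs, where Col4a1 reversed (0.11).

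With cells gated one by one (11 and 83 fibroblasts, 1 and 11 pericytes, 14 and 21 ECs, 265 and 978 cancer cells), shares were 1.96% and 1.56%, 0.728% and 0.580%, 0.637% and 0.553%, and 0.109% and 0.118% in that order. The Col1a1:Col1a2 ratio of fibroblasts was 0.726 and 1.25, and the sGC Ctr Col4a1:Col4a2 ratio of ECs 1.31. In fibroblasts 1 of 10 members was up and 0 down, and in ECs 1 of 5 was up. Medians were -0.0394 in fibroblasts and, reversed, -0.202 in ECs, and summed ratios -0.336, -0.327 (pericytes), -0.204 (ECs) and 0.109 (cancer cells). In fibroblasts Col12a1 (0.77), Col1a1 (0.79), Col1a2 (0.00571), Col23a1 (0.60), Col27a1 (0.41) and Col6a3 (1.15) reversed, and in ECs Col6a1 (-1.37).

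Without joining the libraries (117 and 74 fibroblasts), shares were 5.60% and 5.41% in fibroblasts and 0.140% and 0.143% in cancer cells. The sGC ΔPC Col1a1:Col1a2 ratio of fibroblasts was 0.891, 1 of 20 members was up and 0 down, the median reversed to 0.0443, the summed ratio was -0.0491, and Col12a1 (0.40), Col27a1 (0.21) and Col6a3 (0.28) reversed. As means over cells, shares were 4.02% and 1.93% in fibroblasts, 0.371% in sGC ΔPC ECs and 0.137% and 0.136% in cancer cells, with summed ratios of -1.06, -0.645 and, reversed, -0.00553. Without the filter by deviation, shares were 3.05% in sGC Ctr fibroblasts and 0.140% and 0.146% in cancer cells, with summed ratios of -0.866 and 0.0597. Relative to the median gene, summed ratios were -0.774 in fibroblasts, -0.401 in ECs and 0.0118 in cancer cells.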
